A study of Mus musculus with 6 samples.

Results

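The HIF target and glycolysis genes were 35 of the 22248 genes measured by RNAseq in resting bone-marrow-derived macrophages (BMDMs), and they were chosen by name as enzymes of glycolysis or known targets of the hypoxia-inducible factors (HIFs). Each of the 35 names was present in the deposited table. *Aldoa* appeared in 2 rows, so the list held 36 rows. BMDMs are macrophages that differentiate in culture when bone marrow is fed macrophage colony-stimulating factor. The control group was 3 libraries of *Lyz2cre* mice and the CITED2-deficient group 3 libraries of *Cited2 fl/fl*:*Lyz2cre* mice, all of strain C57BL/6, labelled as postnatal week 10 and cultured without a stimulus. Both genotypes carried Cre in the myeloid gene *Lyz2*, and in the deficient genotype this Cre removed the floxed *Cited2* gene. The sources do not state whether each library came from its own mouse, so p-values measure the spread between these libraries, which may be technical in part.

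Glycolysis splits glucose into pyruvate in the cytosol, and lactate dehydrogenase turns pyruvate into lactate when it is not passed to the mitochondria. HIFs are transcription factors made of an oxygen-sensitive alpha subunit and the constant partner ARNT, which bind the short letters ACGTG or GCGTG near their targets and recruit the coactivators p300 and CBP. They raise glucose uptake, most glycolytic enzymes, lactate export and vessel growth factors, and activated macrophages use the same program at normal oxygen. CITED2 is itself a HIF target and is known to bind the domain of p300 and CBP that HIF alpha subunits use.

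Values are FPKM, fragments per kilobase of transcript scaled to library size, which divide the fragments of a gene by its length and by the size of the library. Recovered depth was 17125735 to 18768976 fragments in the control libraries and 22380752 to 25866422 in the CITED2-deficient libraries, on average 1.34 times as deep. Differences are log2 fold changes on the log2(FPKM + 1) scale, CITED2-deficient over control, from limma with Benjamini-Hochberg adjustment over the 11687 genes with a mean of at least 1 FPKM. An adjusted p under 0.05 was called. *Cited2* itself was 71.7, 79.3 and 75.5 FPKM in control replicates 1 to 3 and 9.27, 7.22 and 7.53 FPKM in CITED2-deficient replicates 1 to 3. All 8 macrophage markers were above the filter, 1 higher and 5 lower, and their summed level was 5624 to 5694 FPKM in control and 5287 to 5367 FPKM in CITED2-deficient libraries. Neutrophil markers summed to 789 to 857 FPKM and 732 to 851 FPKM (2 higher and 5 lower of 8), and megakaryocyte markers, mostly *Pf4*, to 314 to 343 FPKM and 78.4 to 89.7 FPKM (2 higher and 1 lower of 4). Erythroid, dendritic, lymphocyte and mast cell markers were all below the filter. In bulk RNA, fewer cells of a type and less RNA per cell cannot be told apart.

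CITED2 deficiency went with changes in both directions within this program. Of the 35 genes, 14 (40.0%) were higher in CITED2-deficient BMDMs, 12 (34.3%) were lower, and the other 9 missed the threshold. Over all genes tested, 16.7% were called higher and 34.6% lower. The lower share was thus near that of all genes, and the higher share was above it. On the log2(FPKM + 1) scale the largest rise was in the peptide hormone *Adm* and the deepest fall in the growth factor *Vegfa*, while by FPKM alone *Aldoc* fell slightly more (46.2% against 44.9%). Most shifts were small: 29 of the 35 genes stayed within 1.5-fold, and 1 changed by 2-fold or more on this scale. The median log2 fold change was 0.03 for the 35 genes and -0.10 for all genes tested, and the median size regardless of sign was 0.30 against 0.20. The 35 genes were also more abundant, with a median level of 36.1 FPKM against 15.1 FPKM for all genes tested. Adding 1 to FPKM shrinks changes of low genes, so these shares and sizes were not compared at equal level. After median-ratio scaling, which moved the median of all genes tested to -0.01, 18 of the 35 were higher and 10 lower, beside 22.5% and 22.0% of all genes. The 3 control and 3 deficient values did not overlap for 26 genes, 15 of them higher and 11 lower, beside 19.0% and 40.9% of all genes tested. The spread between libraries was small, with a median coefficient of variation over the 35 genes of 4.93% in control and 5.05% in deficient libraries.

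**Figure D1:**
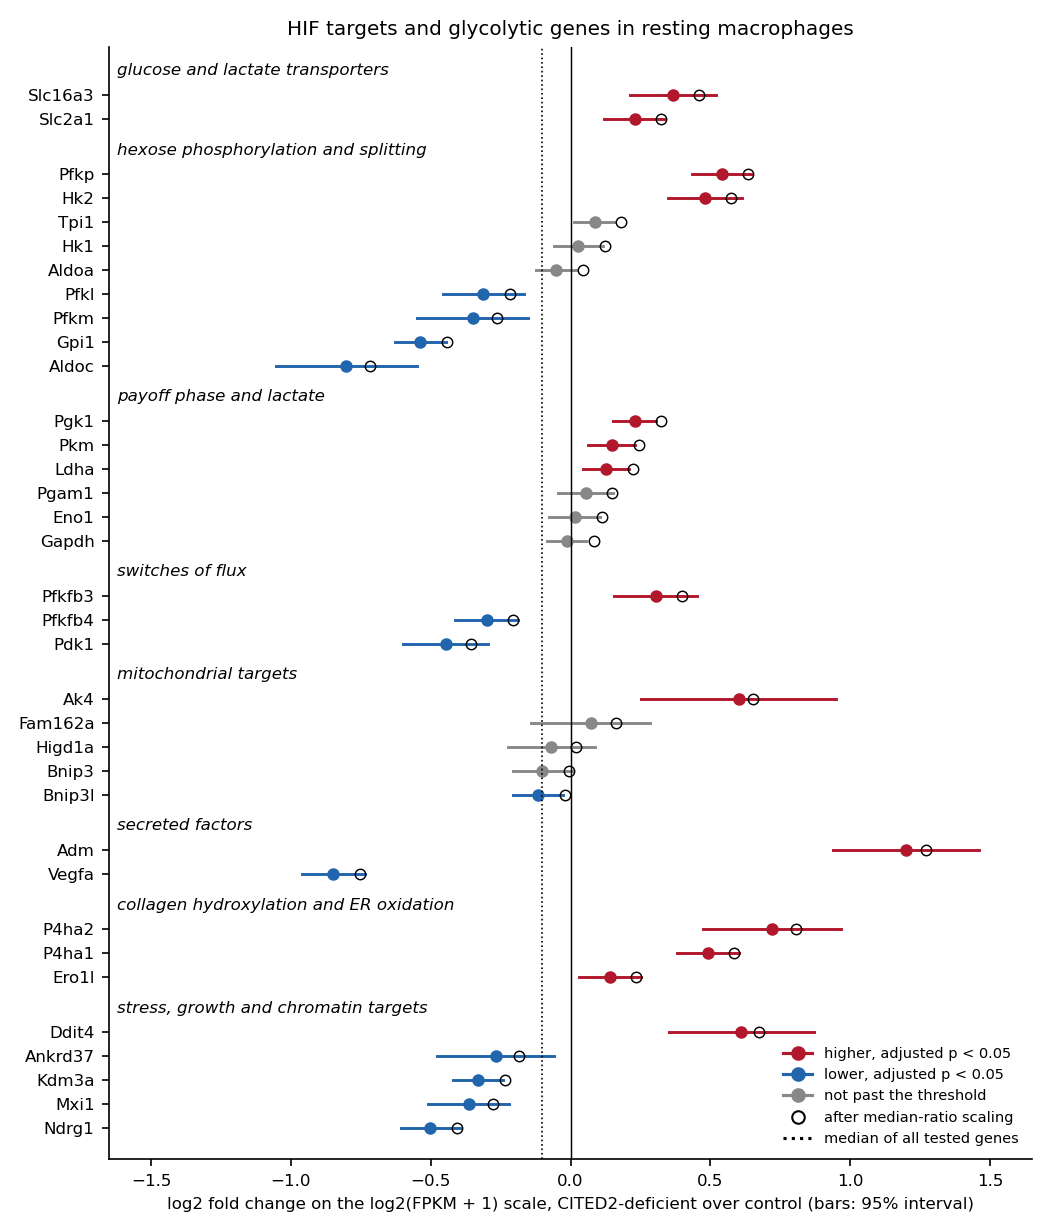
Log2 fold change of each of the 35 genes (x axis, CITED2-deficient over control on the log2(FPKM + 1) scale, 3 libraries each) with its 95% interval, grouped by role. Red marks higher, blue lower and grey not past the threshold, open circles are values after median-ratio scaling and the dotted line is the median of all genes tested at -0.10. *Adm* lies farthest right at 1.20 and *Vegfa* farthest left at -0.85.

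The promoter sequences of the members that moved most show how differently the HIF letters are spread among them. RefSeq windows of the 250 bases before the outermost RefSeq start (GRCm38.p6, the same primary assembly as mm10) were matched for 33 of the 35 genes, all but *Bnip3l* and *Ndrg1*, with *Ero1l* found under its newer symbol *Ero1a*. Windows are printed for the 3 largest rises on the log2(FPKM + 1) scale, which leaves out *Ak4* with its higher FPKM ratio (2.13) (*Adm* at chr7:110627407-110627656, plus strand, *P4ha2* at chr11:54100674-54100923, plus strand, and *Ddit4* at chr10:59951771-59952020, minus strand), for *Ldha* (chr7:46845554-46845803, plus strand), which held the most copies of ACGTG, and for the 3 largest falls (*Vegfa* at chr17:46032378-46032627, minus strand, *Aldoc* at chr11:78322823-78323072, plus strand, and *Gpi1* at chr7:34230337-34230586, minus strand). Each reads 5′ to 3′ on the strand of its gene, and capitals mark ACGTG or GCGTG or their reverse complements (CACGT or CACGC).
Adm: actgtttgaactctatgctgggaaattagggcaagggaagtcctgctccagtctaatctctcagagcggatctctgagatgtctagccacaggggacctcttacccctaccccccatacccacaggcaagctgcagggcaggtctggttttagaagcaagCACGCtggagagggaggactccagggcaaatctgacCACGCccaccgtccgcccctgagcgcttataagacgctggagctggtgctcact
P4ha2: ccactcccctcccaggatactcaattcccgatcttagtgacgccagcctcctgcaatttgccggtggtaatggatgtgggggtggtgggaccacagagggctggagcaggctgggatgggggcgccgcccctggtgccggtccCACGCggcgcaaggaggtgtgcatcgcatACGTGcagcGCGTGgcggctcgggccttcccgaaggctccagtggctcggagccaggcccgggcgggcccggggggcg
Ddit4: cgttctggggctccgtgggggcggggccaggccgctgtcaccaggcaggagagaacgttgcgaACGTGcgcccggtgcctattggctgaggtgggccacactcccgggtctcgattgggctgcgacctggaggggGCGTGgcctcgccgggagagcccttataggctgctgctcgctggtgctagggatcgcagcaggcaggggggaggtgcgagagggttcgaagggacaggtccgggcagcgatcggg
Ldha: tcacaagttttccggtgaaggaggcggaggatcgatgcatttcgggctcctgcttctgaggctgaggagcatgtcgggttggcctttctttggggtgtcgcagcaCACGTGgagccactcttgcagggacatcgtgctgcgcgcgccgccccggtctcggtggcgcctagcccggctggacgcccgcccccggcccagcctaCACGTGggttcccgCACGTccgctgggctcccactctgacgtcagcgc
Vegfa: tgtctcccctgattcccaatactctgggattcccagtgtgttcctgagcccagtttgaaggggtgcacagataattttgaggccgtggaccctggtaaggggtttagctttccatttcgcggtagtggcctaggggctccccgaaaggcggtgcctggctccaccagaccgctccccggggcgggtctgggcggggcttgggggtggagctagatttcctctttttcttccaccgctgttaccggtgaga
Aldoc: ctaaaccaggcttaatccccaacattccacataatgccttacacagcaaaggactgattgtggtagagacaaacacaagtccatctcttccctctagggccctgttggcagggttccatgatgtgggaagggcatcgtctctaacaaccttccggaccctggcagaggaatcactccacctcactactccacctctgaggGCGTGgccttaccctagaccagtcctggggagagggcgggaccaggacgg
Gpi1: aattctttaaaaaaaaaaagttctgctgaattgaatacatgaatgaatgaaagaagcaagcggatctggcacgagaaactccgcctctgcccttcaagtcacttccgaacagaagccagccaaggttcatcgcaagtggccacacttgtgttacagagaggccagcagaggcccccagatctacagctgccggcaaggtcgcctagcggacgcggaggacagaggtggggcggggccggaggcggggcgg
*Ldha* held 3 capital runs, of which 2 were the palindrome CACGTG, so ACGTG occurred 5 times when both strands were read. No capital run was found in the *Vegfa* and *Gpi1* windows. The windows of *P4ha2* and *Ldha* lie inside the longer GENCODE gene, which starts at 54100095 and 46841475. The *Aldoc* and *Ddit4* windows run past the GENCODE starts of their genes. Which start BMDMs use was not tested.

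Over the matched members, ACGTG on either strand was present in 15 of 33 windows (45.5%), against 16.5% of all 27025 RefSeq windows of the same length and 22.4% of the 8754 windows of tested genes. GCGTG was present in 20 (60.6%), against 28.3% and 46.5%. Either spelling was present in 26 (78.8%), against 38.6% and 57.8%. Among the members, ACGTG was held by 10 of 14 that were higher, 2 of 10 that were lower (*Pfkm* and *Ankrd37*) and 3 of 9 that did not pass. With the calls after median-ratio scaling these were 11 of 18, 1 of 9 and 3 of 6. CACGTG, which overlaps ACGTG and is also the E-box bound by other factors, was present in 3 member windows (*Ldha*, *Pfkm* and *Bnip3*). GCGTG was held by 8 of 14 higher, 6 of 10 lower and 6 of 9 other members. These are counts of letters with no test. The members were chosen as glycolysis enzymes or known HIF targets, so their share of HIF letters is not independent of that choice. Windows of genes outside the list were not counted by call, so the split by direction has no background.

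Both transporter genes of the list, for glucose entry and lactate exit, were higher in CITED2-deficient BMDMs, beside 16.7% of all genes tested. Outside the list the glucose transporter genes went both ways, *Slc2a6* higher and *Slc2a3* lower, and *Slc16a1*, a lactate transporter named after its values were seen, was lower (log2 fold change -0.36, adjusted p = 0.0162, limma). *Slc2a1*, the glucose transporter GLUT1, was 25.9, 24.1 and 24.3 FPKM in control replicates 1 to 3 and 29.0, 28.4 and 30.3 FPKM in CITED2-deficient replicates 1 to 3. Its groups did not overlap and the log2 fold change was 0.23, SE 0.05 (adjusted p = 0.00359, limma). *Slc16a3*, the lactate exporter MCT4, was 32.7, 30.6 and 30.8 FPKM in control and 43.4, 36.2 and 42.8 FPKM in deficient libraries. All 3 deficient libraries lay above the controls, with replicate 2 the lowest of them (log2 fold change 0.37, standard error 0.07, adjusted p = 0.00191, limma).

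Genes of the first steps of glycolysis moved in both directions, by isozyme. Of 9 genes for the phosphorylation and splitting of hexoses, 2 (22.2%) were higher, 4 (44.4%) were lower and 3 did not pass. Over all genes tested, the shares were 16.7% higher and 34.6% lower. *Hk2*, the inducible hexokinase (chromosome 6, 82725025 to 82774454 in mm10), was 18.5, 16.4 and 18.8 FPKM in control and 25.7, 25.8 and 24.6 FPKM in deficient libraries, 1.42-fold higher with no overlap (log2 fold change 0.48, standard error 0.06, adjusted p = 0.000147, limma). *Pfkp*, the platelet form of phosphofructokinase (chromosome 13, 6579768 to 6648777), was 40.0, 40.0 and 40.3 FPKM in control and 62.9, 57.8 and 55.9 FPKM in deficient libraries. This was a 1.47-fold rise, and the 3 control values lay close together (log2 fold change 0.54, standard error 0.05, adjusted p = 1.68e-05, limma).

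The falls at these steps were in *Gpi1*, in the other phosphofructokinases and in a minor aldolase. *Gpi1*, phosphoglucose isomerase (chromosome 7, 34201330 to 34230336), was 312, 307 and 303 FPKM in control and 226, 206 and 203 FPKM in deficient libraries. It lost 31.1% of its level and the groups were far apart (log2 fold change -0.54, standard error 0.04, adjusted p = 6.49e-06, limma). *Pfkl*, the liver form of phosphofructokinase, was 50.6, 57.6 and 55.2 FPKM in control and 46.9, 40.3 and 43.8 FPKM in deficient libraries (log2 fold change -0.31, adjusted p = 0.00333, limma). *Pfkm*, the muscle form, was 8.80, 10.3 and 9.42 FPKM against 8.08, 7.02 and 6.63 FPKM (log2 fold change -0.35, adjusted p = 0.00893, limma). In both genes the highest deficient library was replicate 1 and it lay below every control. *Aldoc*, the aldolase form of brain (chromosome 11, 78322968 to 78327781), was 11.0, 12.1 and 10.2 FPKM in control and 6.93, 6.04 and 4.93 FPKM in deficient libraries, a 46.2% lower mean (log2 fold change -0.80, standard error 0.11, adjusted p = 0.000328, limma).

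The other 3 genes of these steps did not pass the threshold. The log2 fold change of *Hk1*, the constitutive hexokinase, was 0.03 with a 95% interval from -0.06 to 0.11, and 0.12 after median-ratio scaling, which called it higher (adjusted p = 0.0312, limma). *Tpi1*, triosephosphate isomerase, was 0.09 with an interval from 0.01 to 0.16 (adjusted p = 0.0538), although its 3 deficient libraries at 255 to 271 FPKM lay above the controls at 243 to 255 FPKM. It was called higher in 7 of the alternatives tried, among them those without control replicate 2 (adjusted p = 0.0472, limma) or without CITED2-deficient replicate 2 (adjusted p = 0.0231, limma). *Aldoa*, the main aldolase, was 1032, 1046 and 1043 FPKM in control and 1052, 981 and 980.4 FPKM in deficient libraries, with overlap. Its log2 fold change of -0.05 turned to 0.04 after median-ratio scaling, and it was called lower after quantile normalization (-0.07, adjusted p = 0.0454, limma) and without CITED2-deficient replicate 1 (-0.08, adjusted p = 0.0235, limma). The second *Aldoa* row (ENSMUSG00000114515), which lies next to the main one, was under 1 FPKM in every library and was not tested.

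Below the splitting step, the enzymes of the payoff phase moved little and none was lower. Of 6 genes, 3 were higher, beside 16.7% higher and 34.6% lower of all genes tested. *Pgk1*, the kinase of the first ATP-yielding step, was 137, 133 and 134 FPKM in control and 164, 153 and 156 FPKM in deficient libraries (log2 fold change 0.23, standard error 0.03, adjusted p = 0.00053, limma). *Pkm*, pyruvate kinase, had the highest mean level of the 35 genes, with 1166, 1157 and 1198 FPKM in control and 1363, 1232 and 1306 FPKM in deficient libraries. Its rise of 10.8% was a log2 fold change of 0.15 (adjusted p = 0.00977, limma), which became 0.24 after median-ratio scaling and 0.10 after quantile normalization, where it was not called (adjusted p = 0.0812). *Ldha*, lactate dehydrogenase A, was 423, 425 and 423 FPKM in control and 487, 440.0 and 462 FPKM in deficient libraries. The control values of *Ldha* had the smallest relative spread of the list, and its log2 fold change of 0.13 (adjusted p = 0.0174, limma) became 0.22 after median-ratio scaling and was not called without control replicate 3 (adjusted p = 0.052).

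*Gapdh*, *Pgam1* and *Eno1*, the remaining enzymes of this phase, did not pass, and their libraries overlapped. *Gapdh*, often used as a reference gene, was 848 to 885 FPKM in control and 837 to 891 FPKM in deficient libraries, with a log2 fold change of -0.01 (95% interval -0.08 to 0.06) that turned to 0.08 after median-ratio scaling and to 0.01 without CITED2-deficient replicate 2. *Pgam1*, phosphoglycerate mutase, was 0.05 (interval -0.05 to 0.15) and *Eno1*, enolase, was 0.01 (interval -0.08 to 0.11). After median-ratio scaling *Pgam1* (0.15) and *Eno1* (0.11) were called higher, and without CITED2-deficient replicate 1 *Eno1* was -0.03. *Gapdh*, *Aldoa*, *Eno1*, *Pgk1*, *Ldha*, *Pkm*, *Tpi1* and *Pgam1* have processed pseudogenes in the genome, so reads shared with near-identical copies make their exact levels uncertain.

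**Figure D2:**
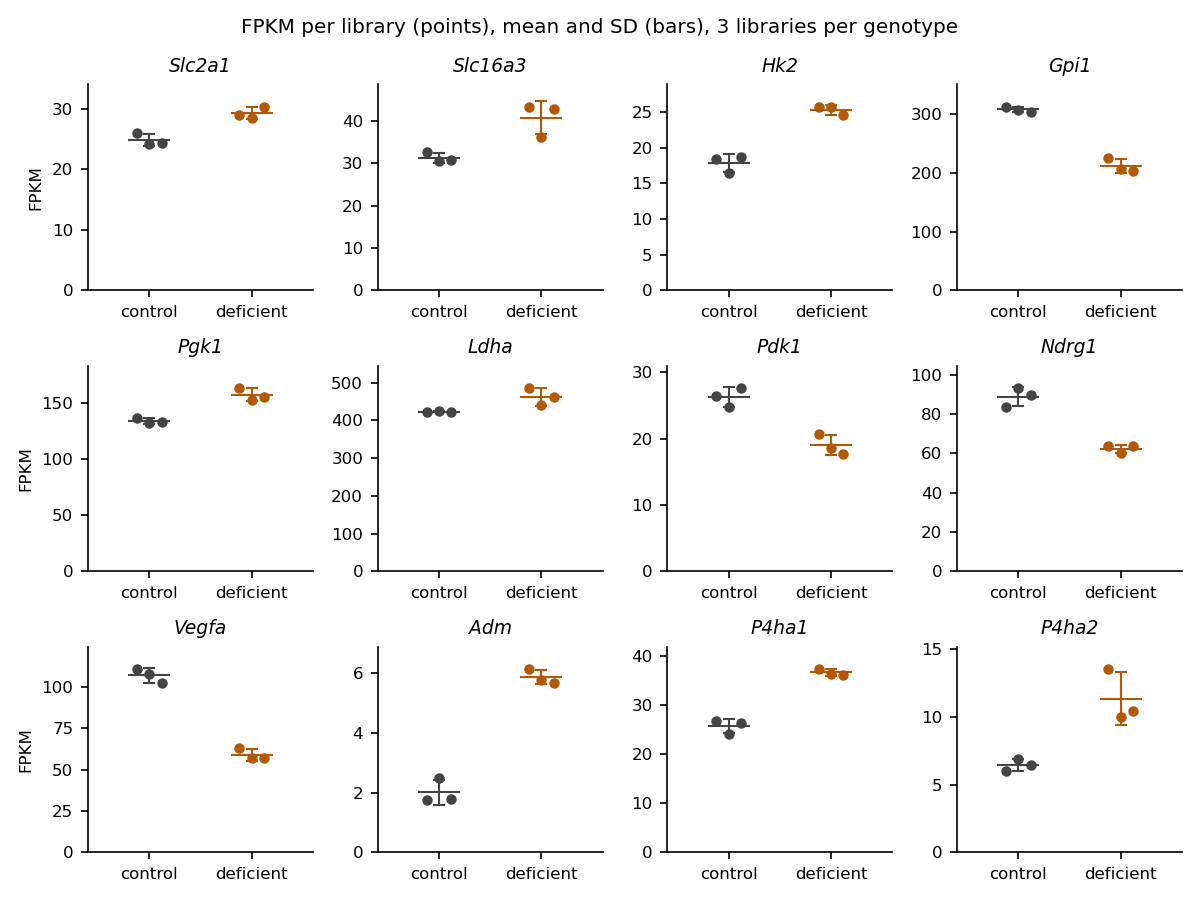
FPKM (y axis, from 0) in each library for 12 of the genes, with points for the 3 control and 3 CITED2-deficient libraries, a horizontal bar for the mean and whiskers for the SD. *Gpi1*, *Pdk1*, *Ndrg1* and *Vegfa* are lower in all 3 deficient libraries and the other 8 genes are higher in all 3.

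The enzymes that steer flux moved apart. *Pfkfb3* and *Pfkfb4* encode the bifunctional enzymes that make and break the sugar phosphate activator of phosphofructokinase. *Pfkfb3*, the form with the stronger kinase activity, was 38.1, 40.4 and 33.7 FPKM in control and 44.9, 48.6 and 45.4 FPKM in deficient libraries (log2 fold change 0.30, standard error 0.07, adjusted p = 0.00423, limma). *Pfkfb4* was 41.0, 37.9 and 37.5 FPKM against 32.3, 31.6 and 30.0 FPKM (log2 fold change -0.30, standard error 0.05, adjusted p = 0.000916, limma). Neither gene had overlapping groups. *Pdk1*, the kinase that shuts off pyruvate dehydrogenase and so keeps pyruvate from the mitochondria, was 26.4, 24.8 and 27.7 FPKM in control and 20.8, 18.6 and 17.8 FPKM in deficient libraries, a fall of 27.6% (log2 fold change -0.45, standard error 0.07, adjusted p = 0.000523, limma).

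Because FPKM is per length, the levels of isozymes can be added within a library, and such shares do not depend on the scaling between libraries. In all, 20 shares and sums were compared, and 13 had groups that did not overlap. The shares of a pair mirror each other, so these are not separate results. By FPKM of single genes, groups did not overlap for 19.0% (higher) and 40.9% (lower) of all genes tested. For the 13, the exact permutation test gave p = 0.1, the smallest value that 3 against 3 libraries allow (0.154 after Benjamini-Hochberg adjustment). *Pfkp* held 40.3%, 37.1% and 38.4% of the phosphofructokinase FPKM in control and 53.4%, 55.0% and 52.5% in deficient libraries, and *Pfkl* went from a mean of 52.3% ± 1.29 to 39.8% ± 1.46 (SD, n = 3). Thus *Pfkl* was the leading form in all 3 control libraries and *Pfkp* in all 3 deficient libraries, while the sum of the 3 forms was 104.0 ± 4.28 FPKM in control and 109.8 ± 7.09 FPKM in deficient libraries (SD, n = 3, exact permutation p = 0.4). With fragments divided by the longest transcript of each gene instead, *Pfkp* went from 27.6% to 41.4% and *Pfkl* from 53.2% to 43.6%, so the shares moved the same way but *Pfkl* kept the higher mean in both genotypes, with *Pfkp* ahead in CITED2-deficient replicate 2 (42.5% against 42.2%).

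Summed hexokinase FPKM was 249.7 ± 5.49 in control and 324.7 ± 8.53 in deficient libraries (SD, n = 3), with no overlap (exact permutation p = 0.1, 0.154 adjusted, which does not pass). Most of it was *Hk3*, a hexokinase of myeloid cells and no member of the list, which went from 59.3% to 65.9% of the sum, while *Hk1* went from 33.6% to 26.3%. *Hk2* held 7.18% and 7.81%, and its groups overlapped when longest transcripts were used (exact permutation p = 0.8). *Pfkfb3* went from 49.0% ± 2.28 to 59.7% ± 1.32 of its pair (SD, n = 3), with a summed level of 76.2 FPKM in control and 77.7 FPKM in deficient libraries (exact permutation p = 0.8, groups overlapping). *Aldoc* was 1.05% of aldolase in control and 0.589% in deficient libraries. The shares within the *Bnip3* pair (exact permutation p = 0.8) and the *P4ha1* and *P4ha2* pair (p = 0.2) overlapped between genotypes.

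**Figure D3:**
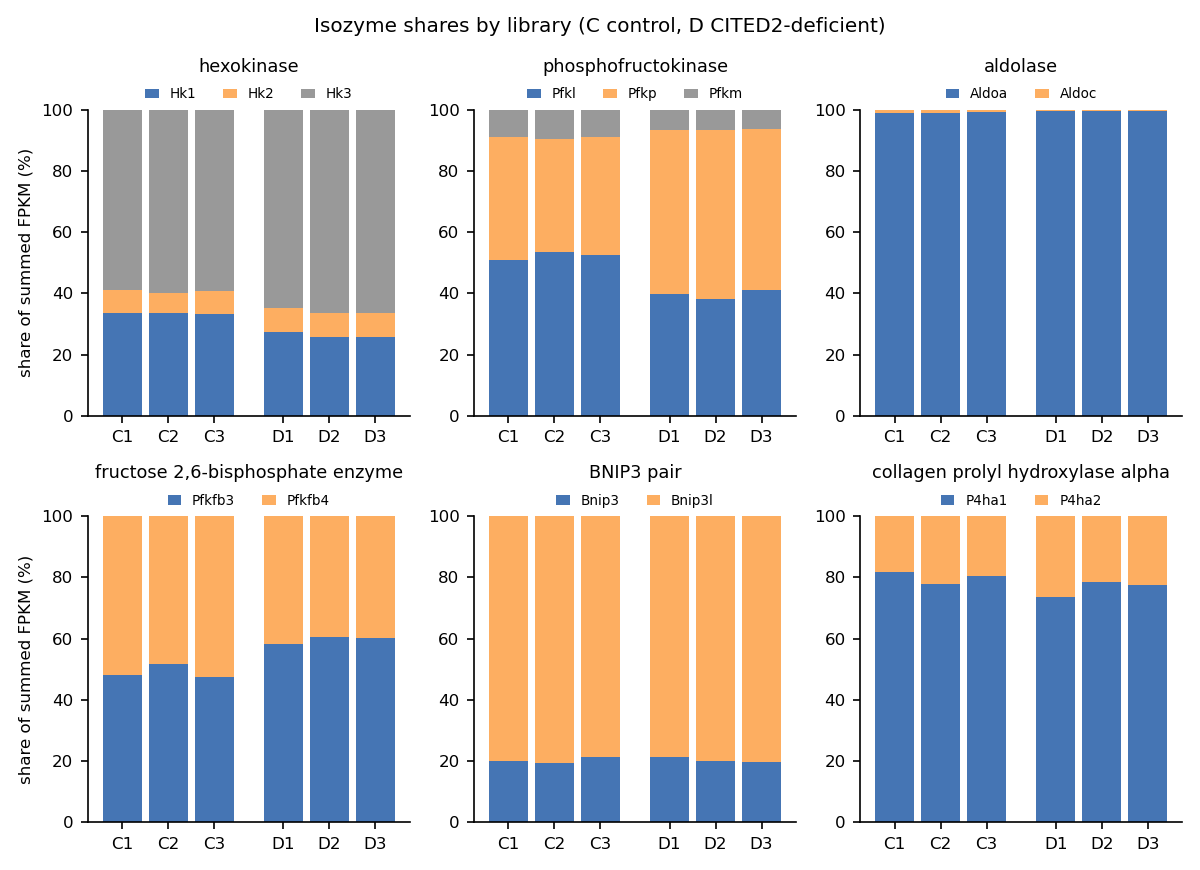
Share of the summed FPKM of each step (y axis, %) held by each isozyme in control (C1 to C3) and CITED2-deficient (D1 to D3) libraries. *Pfkp* holds 37.1% to 40.3% of phosphofructokinase in control and 52.5% to 55.0% in deficient libraries, while the *Bnip3* pair overlaps at 19.3% to 21.3%.

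Mitochondrial HIF targets showed a single rise. *Ak4*, an adenylate kinase of the mitochondrial matrix, was the least expressed of the 35 genes, with 0.742, 1.00 and 0.864 FPKM in control and 2.36, 1.45 and 1.76 FPKM in deficient libraries, from 30 to 37 and 70 to 128 recovered fragments. Its control mean of 0.869 FPKM was under the filter, so *Ak4* was tested only through its deficient libraries, which favours a call of higher. Its groups did not overlap, CITED2-deficient replicate 1 was the highest library, and the log2 fold change was 0.60, SE 0.15 (adjusted p = 0.00995, limma). It was 0.48 without that library (adjusted p = 0.0363) and 0.99 with a pseudocount of 0.1, since adding 1 shrinks changes at this level. *Bnip3l*, a mitophagy receptor also called NIX, was 127, 136 and 122 FPKM in control and 118, 119 and 118 FPKM in deficient libraries (log2 fold change -0.12, adjusted p = 0.0361, limma). That call was lost after median-ratio scaling (-0.02, adjusted p = 0.726) and when any library but control replicate 3 was left out (adjusted p from 0.0604 to 0.104).

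*Bnip3*, the related mitophagy receptor, *Higd1a*, a small protein of the respiratory chain, and *Fam162a*, a mitochondrial protein linked to cell death, did not pass and their groups overlapped. *Bnip3* was 31.8 to 33.1 FPKM in control and 28.8 to 31.9 FPKM in deficient libraries (log2 fold change -0.10), and it was called lower without CITED2-deficient replicate 1 (-0.14, adjusted p = 0.045, limma). *Higd1a* was -0.07 with a 95% interval from -0.22 to 0.09, and 0.02 after median-ratio scaling. *Fam162a* was 0.07 with an interval from -0.14 to 0.28, and -0.02 without CITED2-deficient replicate 1.

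Both secreted factors changed, in opposite directions, beside 16.7% higher and 34.6% lower of all genes tested. *Vegfa*, the vessel growth factor (chromosome 17, 46016993 to 46032369), was 111, 108 and 102 FPKM in control and 63.1, 57.1 and 56.8 FPKM in deficient libraries. Every deficient library lay below every control, and the mean was 44.9% lower (log2 fold change -0.85, standard error 0.05, adjusted p = 1.21e-06, limma). *Adm*, adrenomedullin, a vessel-widening peptide (chromosome 7, 110627661 to 110629820), was 1.74, 2.49 and 1.79 FPKM in control and 6.15, 5.77 and 5.68 FPKM in deficient libraries. These values came from 29 to 38 and 115 to 138 recovered fragments, 2.92-fold more per length and depth in the deficient libraries (log2 fold change 1.20, standard error 0.11, adjusted p = 2.99e-05, limma). Of this pair, the printed *Adm* window held 2 copies of GCGTG and the *Vegfa* window held neither spelling. Only 250 bases were searched per gene, so letters farther from the start were not counted for either gene.

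All 3 genes for collagen hydroxylation and oxidative folding were called higher, beside 16.7% of all genes tested. *P4ha1* and *P4ha2* encode the catalytic subunits of the prolyl hydroxylase that stabilises collagen. *P4ha1* was 26.9, 24.2 and 26.4 FPKM in control and 37.5, 36.4 and 36.3 FPKM in deficient libraries, 1.42-fold higher with no overlap (log2 fold change 0.49, standard error 0.05, adjusted p = 3.96e-05, limma). *P4ha2* (chromosome 11, 54100095 to 54131665) was 6.01, 6.92 and 6.45 FPKM in control and 13.6, 10.0 and 10.5 FPKM in deficient libraries, with replicate 1 standing above the others (log2 fold change 0.72, standard error 0.11, adjusted p = 0.000547, limma). *Ero1l*, the oxidase that recharges disulfide isomerase in the endoplasmic reticulum, was 34.6, 31.5 and 34.5 FPKM against 38.3, 36.3 and 36.5 FPKM (log2 fold change 0.14, adjusted p = 0.0386, limma). The call for *Ero1l* was lost without control replicate 2 (0.10, adjusted p = 0.113, limma) or without any one of the deficient libraries (adjusted p from 0.0558 to 0.115). That call was also lost with no filter, with no variance trend and in limma-voom on recovered fragments. After median-ratio scaling the log2 fold change of *Ero1l* was 0.23.

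Markers of fibroblasts and stromal cells, which make collagen, moved in the same libraries. Of 12 such markers, 10 were higher, beside 16.7% of all genes tested, and 2 (*Lum* and *Thy1*) were below the filter. None was at 0 in any library. *Postn* and *Pdgfrb* had control means of 0.394 and 0.936 FPKM, so they passed the filter only through the deficient libraries. Their summed level was 88.8, 74.4 and 89.4 FPKM in control and 778, 299 and 298 FPKM in deficient replicates 1 to 3, with *Col1a1*, a collagen chain, at 305, 62.0 and 62.6 FPKM in the deficient libraries. Without CITED2-deficient replicate 1, which stood apart in these markers, *P4ha2* kept a log2 fold change of 0.59 (adjusted p = 0.000635) and *P4ha1* of 0.48 (adjusted p = 0.000228), and *Slc16a3* was 0.32 (adjusted p = 0.00687, limma). Deficient replicates 2 and 3 still lay above every control in the summed markers, so leaving out replicate 1 does not remove the stromal difference. The part of the stromal markers in the rise of these genes was not tested.

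**Figure D4:**
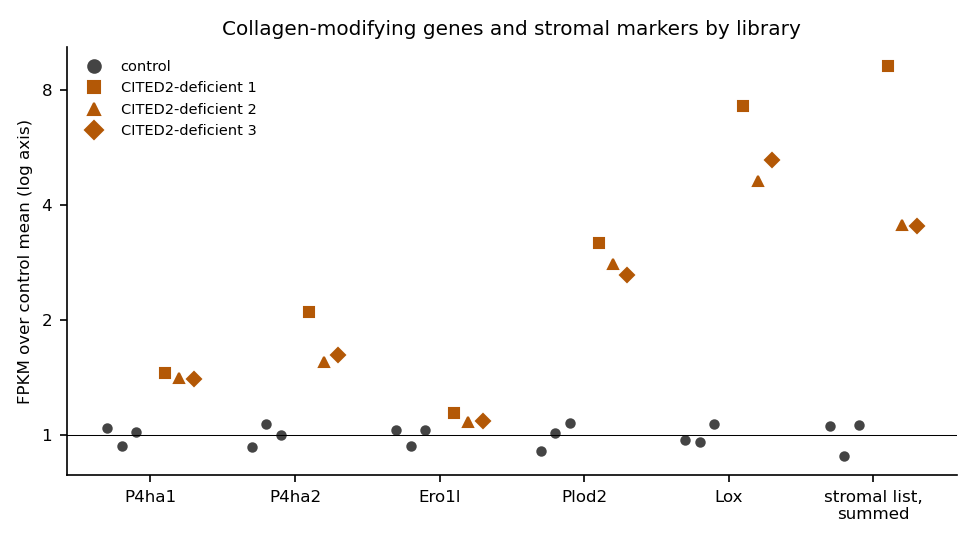
FPKM of each library over the control mean (y axis, log scale) for the 3 genes of this group, for *Plod2* and *Lox*, which also modify collagen, and for the sum of 12 stromal markers. Circles are control libraries and squares, triangles and diamonds are CITED2-deficient replicates 1, 2 and 3. Replicate 1 is highest for *P4ha2* at 13.6 FPKM and for the stromal sum at 778 FPKM.

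Among the 5 targets for stress, growth and chromatin, 1 was higher and 4 were lower, beside 16.7% and 34.6% of all genes tested. *Ddit4*, also called REDD1, which restrains the growth kinase mTOR (chromosome 10, 59949669 to 59951834), was 1.39, 1.55 and 1.29 FPKM in control and 2.85, 2.42 and 2.77 FPKM in deficient libraries, from 43 to 47 and 96 to 127 recovered fragments. The 1.90-fold rise was a log2 fold change of 0.61, SE 0.11 (adjusted p = 0.00191, limma) and of 0.93 in limma-voom on the recovered fragments. *Ndrg1*, a stress-induced gene of differentiation, was 83.5, 93.4 and 89.5 FPKM in control and 63.7, 60.0 and 63.5 FPKM in deficient libraries, a fall of 29.7% (log2 fold change -0.50, standard error 0.05, adjusted p = 2.54e-05, limma). *Mxi1*, an antagonist of the transcription factor MYC, was 9.04, 8.91 and 8.60 FPKM in control and 6.68, 6.57 and 6.71 FPKM in deficient libraries. Its spread was small in both genotypes and its log2 fold change was -0.36, SE 0.06 (adjusted p = 0.00129, limma).

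*Kdm3a*, a histone demethylase, was 45.7, 44.9 and 44.1 FPKM in control and 35.8, 34.3 and 36.3 FPKM in deficient libraries (log2 fold change -0.33, standard error 0.04, adjusted p = 0.000125, limma). *Ankrd37*, an ankyrin repeat protein, was 8.97, 7.50 and 8.72 FPKM in control and 7.57, 6.62 and 6.22 FPKM in deficient libraries. It was the only called gene of the 35 whose groups overlapped, since control replicate 2 lay below deficient replicate 1 (log2 fold change -0.27, adjusted p = 0.0374, limma). Its call was lost after median-ratio scaling (-0.18, adjusted p = 0.126) and when control replicate 1, control replicate 3, deficient replicate 2 or deficient replicate 3 was left out (adjusted p from 0.0915 to 0.122).

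The wider pathway was read from 82 further genes, of which 66 were tested. Of 24 other tested genes of glycolysis and pyruvate use, 5 (20.8%) were higher and 7 (29.2%) lower, near the 16.7% and 34.6% of all genes tested, and the median log2 fold change was -0.16. The largest rises were *Pdk4*, another brake on pyruvate dehydrogenase, at 1.35, 0.971 and 0.850 FPKM in control and 4.63, 2.83 and 3.19 FPKM in deficient libraries (log2 fold change 1.13, adjusted p = 0.000489, limma), *Hk3* (0.53, adjusted p = 2.75e-06) and the glucose transporter gene *Slc2a6* (0.38, adjusted p = 0.000265). The largest falls were *Slc2a3*, the glucose transporter GLUT3 (-0.54, adjusted p = 0.000722), *Mpc1*, a subunit of the mitochondrial pyruvate carrier (-0.44, adjusted p = 0.0013), and *Eno3*, the muscle enolase (-0.40, adjusted p = 0.00492, limma). *Pdk4* thus rose while *Pdk1* fell, and *Slc2a3* fell while *Slc2a1* rose. *Pdk2* and *Pdk3*, named after their values were seen, were also lower (-0.40, adjusted p = 0.003, and -0.18, adjusted p = 0.0426, limma). The call for *Pdk3* was lost after median-ratio scaling (adjusted p = 0.294, limma).

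Of 32 other tested HIF targets, 15 (46.9%) were higher and 7 (21.9%) lower, with a median log2 fold change of 0.04, beside 16.7% and 34.6% of all genes tested. After median-ratio scaling 15 were higher and 5 lower, beside 22.5% and 22.0%. Among the largest rises were *Lox*, a collagen cross-linking oxidase, at 5.31, 5.23 and 5.84 FPKM in control and 39.7, 25.4 and 28.7 FPKM in deficient libraries (log2 fold change 2.30, adjusted p = 1.38e-06, limma), and *Loxl2*, a relative of *Lox* (1.30, adjusted p = 0.000369). In both genes deficient replicate 1, the library with the most stromal markers, was the highest, and they were 2.12 and 1.11 without that library. *Loxl2* had a control mean of 0.723 FPKM, so it passed the filter only through the deficient libraries. *Plod2*, a collagen lysyl hydroxylase named after its values were seen, was 1.10 (adjusted p = 3.51e-05, limma). The deepest falls were *Selenbp1*, a selenium-binding protein, from 15.0 ± 0.81 to 4.86 ± 0.37 FPKM (SD, n = 3, log2 fold change -1.45, adjusted p = 4.86e-07, limma), *Hmox1*, heme oxygenase, from 569 ± 10.4 to 311 ± 3.52 FPKM (SD, n = 3, log2 fold change -0.87, adjusted p = 1.47e-08, limma), and *Zfp36l1*, an mRNA decay factor (-0.45, adjusted p = 3.5e-05, limma).

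Of 10 tested genes for HIF subunits, oxygen sensors and coactivators, 6 were lower, 1 was higher and 3 did not pass, beside 34.6% lower and 16.7% higher of all genes tested. The 6 included *Cited2*, whose fall the genotype fixes, and after median-ratio scaling 4 were lower, *Cited2* among them, and 2 higher. *Hif1a* was 49.7, 48.0 and 49.5 FPKM in control and 39.4, 39.0 and 37.7 FPKM in deficient libraries (log2 fold change -0.33, standard error 0.04, adjusted p = 8.56e-05, limma). *Arnt*, its partner, was -0.23 (adjusted p = 0.00224), *Hif1an*, the asparagine hydroxylase that blocks HIF from p300, was -0.27 (adjusted p = 0.00248, limma), and *Cited2* was -3.09 (adjusted p = 6.57e-09, limma). *Egln2*, a HIF prolyl hydroxylase (-0.16, adjusted p = 0.0205), and *Arntl*, the clock factor BMAL1 (-0.22, adjusted p = 0.0464), were called lower but not after median-ratio scaling (adjusted p = 0.288 and 0.19, limma). *Egln2* was also not called without control replicate 1, control replicate 3, deficient replicate 1 or deficient replicate 2, and *Arntl* without any one library. The prolyl hydroxylase genes *Egln1* and *Egln3* were counted among the HIF targets instead and named after their values were seen. *Egln1* was lower (-0.23, adjusted p = 0.00554, limma), but not called after median-ratio scaling (adjusted p = 0.0546, limma). *Egln3* was higher (0.52, adjusted p = 0.00717, limma). *Ep300*, which encodes p300, was 105, 95.1 and 107 FPKM in control and 112, 118 and 123 FPKM in deficient libraries (log2 fold change 0.20, standard error 0.05, adjusted p = 0.00863, limma). *Epas1*, which encodes HIF-2 alpha (0.03), and *Vhl*, which marks HIF for destruction (0.08), did not pass, and *Vhl* was called higher after median-ratio scaling (0.17, adjusted p = 0.0337, limma). *Crebbp*, which encodes CBP, was -0.07 and turned to 0.03 after median-ratio scaling.

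**Figure D5:**
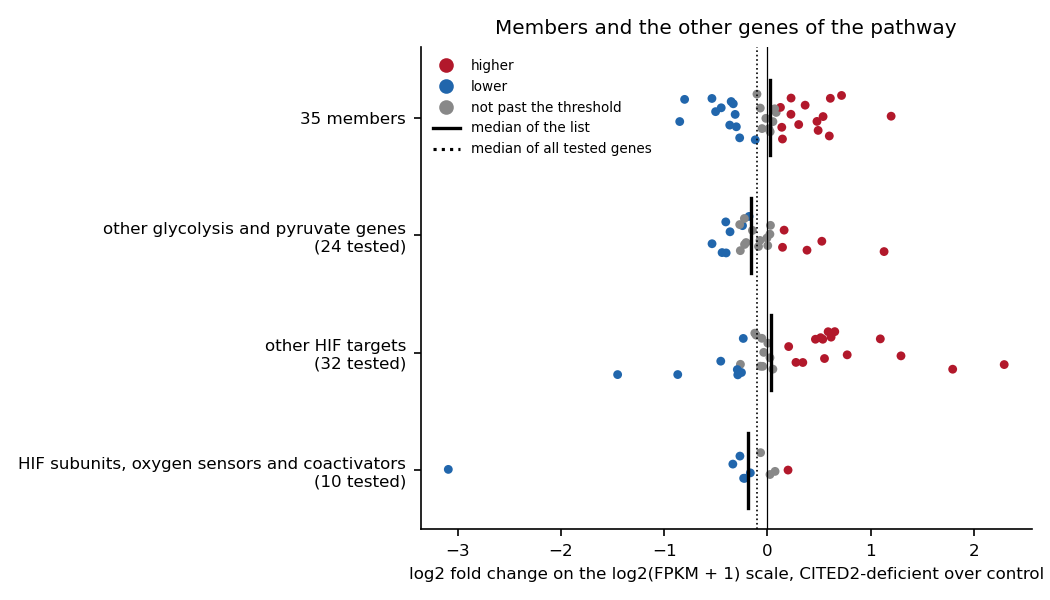
Log2 fold change (x axis, CITED2-deficient over control) of the 35 genes and of 3 lists of other pathway genes. Each point is a gene, red if higher, blue if lower and grey if not past the threshold, short bars are list medians and the dotted line is the median of all genes tested. The point at -3.09 is *Cited2* and the farthest right, at 2.30, is *Lox*.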

How the data were processed

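RNA was extracted from BMDMs in 6 libraries, and the authors removed ribosomal RNA, prepared stranded libraries, mapped reads to mm10 with STAR and ran Cuffdiff with the GENCODE annotation (versions not given in the sources used here). The deposited values are the FPKM that the authors obtained for each gene and library, not pooled over replicates. Column names were matched to samples through older names of *Lyz2* and *Cited2*.

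A two-sided limma test (version 3.58.1, R 4.3.3) with a trend of variance on expression was applied to log2(FPKM + 1) of genes with a mean of at least 1 FPKM. The pseudocount understates changes of low genes, and FPKM of abundant genes shift all others. The Cuffdiff test was not repeated, for lack of alignments. Fragments were recovered from the FPKM with mean transcript lengths of GENCODE vM21, and 96.1% of 22239 matched genes were whole to within 0.02 in each library. Isozyme shares were compared by a two-sided exact permutation test. Simulated data were used to check the fit.

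The members and lists were chosen with earlier results of these data known. Named genes are all 35 members and every tested gene of the list of HIF subunits, oxygen sensors and coactivators. In the lists of glycolysis and of HIF targets, they are the 3 called genes without overlap that rose most and the 3 that fell most. A gene under this rule is not reported here. Alternatives were pseudocounts of 0.1 and 0.5, no filter or a mean of at least 5 FPKM, median-ratio scaling, quantile normalization, no variance trend, array weights, limma-voom on recovered fragments, a replicate block, a fold change of at least 1.5 and each library left out. Isozyme shares per longest transcript were added after seeing the data.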

Additional observations from a re-analysis of the deposited data

How the results depend on the processing

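Apart from the fold threshold, 21 of the 26 called members kept their call and direction in every alternative that included them. Of the 21, 11 were higher and 10 lower. The exceptions were *Ankrd37*, *Bnip3l*, *Ero1l*, *Ldha* and *Pkm*, which all moved by less than 1.5-fold. Requiring a fold change of at least 1.5 left 6 genes, 4 higher and 2 lower. Leaving out each library in turn gave 23 to 26 called members, 13 to 14 higher and 10 to 13 lower. After median-ratio scaling *Aldoa* (0.0448), *Gapdh* (0.0821), *Higd1a* (0.0213) and *Crebbp* (0.0264) turned from below to above 0, and *Crebbp* did so after quantile normalization (0.0051). With each library left out in turn, *Gapdh* ranged from -0.0391 to 0.0054 (above 0 without CITED2-deficient replicate 2), *Eno1* from -0.0335 to 0.0475 and *Fam162a* from -0.0225 to 0.1779 (both below 0 without CITED2-deficient replicate 1), and *Epas1* from -0.0091 to 0.0601 (below 0 without control replicate 2 or, at -0.0029, without CITED2-deficient replicate 3). None of these genes was called as deposited or in the setting that turned it, and the cause was not tested. The share of *Bnip3* in its pair differed by 0.155 percentage points between genotypes and ranged from -0.309 to 0.703 with a library left out.

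Same-numbered libraries of the genotypes showed little shared deviation (correlations of 0.014, 0.008 and 0.040 over the genes tested). Other combinations ranged from -0.052 to 0.035. Such values cannot show whether libraries were collected or processed in pairs. With the replicate block 26 members were called, 14 higher and 12 lower, and *Arntl* was not called (adjusted p = 0.0624, limma). Depth limits *Ak4*, *Adm* and *Ddit4*, each with at most 138 fragments in any library.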
